A study of Mus musculus with 2 samples.

Results

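Surface colonocyte nuclei of the mouse colon were examined in Pink1 knockout (KO) and wild-type (WT) mice, as 850 nuclei picked by their transcripts among 21034 nuclei that passed filtering. A nucleus was taken when it held at least 3 unique molecular identifiers (UMIs, each a counted RNA molecule) over Slc9a3, Clca4a, Guca2a, Krt20, Emp1 and Slc13a2, from at least 2 of these 6 genes, and at least 1 UMI of Slc26a3. It could hold at most 1 UMI over Slc37a2, Atp12a, Car4, Aqp8 and Slc15a1, at most 1 over Slc10a2, Abca12, Slc30a10 and Slc13a1, and Muc2 had to stay below 0.5% of its UMIs. The rule gave 590 of 12146 nuclei in the KO library and 260 of 8888 in the WT library.

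The KO group was 3 male Pink1 knockout C57BL/6 mice aged 15 weeks, and the WT group 3 wild-type male littermates of the same age. In both groups detergent-released nuclei of the whole colon were stained with SYTOX Green, sorted into cold methanol, pooled over the 3 mice and run as 1 library with 3' tags on the 10x Genomics platform. The labels give the WT library as batch 1 and the KO library as batch 2, so genotype, batch and library cannot be told apart. With 1 library per genotype no value has a replicate, no test between genotypes was possible, and every 95% interval in parentheses covers counting error only.

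Colonocytes arise in the crypt and move up to the surface, where they absorb salt, water and short-chain fatty acids before they are shed. Slc9a3 encodes NHE3, which exchanges luminal sodium for protons, and Slc26a3 encodes DRA, which exchanges chloride for bicarbonate, so that together they take up salt. Krt20 is a keratin of mature gut epithelium, Guca2a encodes guanylin, a secreted peptide that activates the guanylate cyclase of the apical membrane, and PINK1 is the kinase that tags failing mitochondria so that mitophagy can clear them.

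The deposited libraries held 22446326 UMIs over 12230 barcodes for KO and 16997995 UMIs over 8924 barcodes for WT. The surface colonocyte nuclei carried 1239593 UMIs in the KO library and 616066 in the WT library, with a median of 1843 UMIs and 1063 genes per KO nucleus and 2066.5 UMIs and 1173.5 genes per WT nucleus. Mitochondrially encoded RNA was 0.958% of their UMIs in KO and 0.498% in WT, against 0.514% in KO and 0.266% in WT over all kept nuclei. The libraries shared 28 barcode sequences, of which 0 were surface colonocytes in both. The highest doublet scores fell on 77 KO nuclei (13.1%) and 23 WT nuclei (8.85%), against 9.72% of all kept KO and 7.11% of all kept WT nuclei.

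The 6 genes of the rule and Slc26a3 are given as a description, since they chose the nuclei. Levels are CPM, the UMIs of a gene scaled to a common total of nuclear-encoded UMIs, summed over the nuclei of a class in a library. Slc9a3, on chromosome 13 (74121457 to 74169442, plus strand, GRCm38), stood at 954 CPM in KO surface colonocytes and 527 in WT. Krt20 on chromosome 11 (99428403 to 99438150, minus strand) had 635 CPM in KO and 347 in WT, and Guca2a on chromosome 4 (119637704 to 119639471, plus strand) had 820 in KO and 711 in WT. Krt20 was not particular to these nuclei in KO. It had 596 CPM in KO and 270 in WT Car4 type nuclei, described further on. In Slc10a2 type nuclei it had 572 in KO and 214 in WT. Emp1, an epithelial membrane protein gene, had 2280 CPM in KO and 1325 in WT. Slc13a2, the sodium dicarboxylate cotransporter, had 581 CPM in KO and 519 in WT, and Slc26a3 had 2139 in KO and 1732 in WT. Clca4a, a calcium-activated chloride channel regulator, was the thinnest of the 6, with 130 UMIs (106 CPM) in KO and 56 UMIs (91.4 CPM) in WT.

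A surface colonocyte seldom showed the whole set of 6. Nuclei with UMIs of 2 of the 6 genes made up 26.3% in KO and 33.8% in WT, nuclei with 3 made up 29.2% in KO and 38.8% in WT, and 13 KO and 2 WT nuclei held all 6. Emp1 was detected in 85.3% of KO and 73.8% of WT nuclei, Slc9a3 in 58.8% in KO and 52.3% in WT, and Krt20 in 59.3% in KO and 46.9% in WT. Guca2a was detected in 61.2% in KO and 54.6% in WT, Slc13a2 in 62.9% in KO and 65.4% in WT, and Clca4a in 11.2% in KO and 8.08% in WT. Slc9a3 and Krt20 were found together in 40.0% of KO and 26.2% of WT nuclei. The median nucleus held 9 UMIs of the 6 genes in KO and 6 in WT. In non-epithelial nuclei of the same libraries, which should lack these genes, Slc9a3 was found in 1.36% (KO) and 1.09% (WT), Krt20 in 2.83% in KO and 2.36% in WT, and Guca2a in 5.33% in KO and 2.91% in WT. Emp1, which stromal cells also express, was found in 16.4% in KO and 13.5% in WT. The median depth of those nuclei was 1262 UMIs in KO and 1258.5 in WT.

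At the edge of the rule, 71 KO and 54 WT nuclei held exactly 3 UMIs of the 6 genes and 60 KO and 47 WT nuclei that met its other terms held 2 and stayed outside, while 262 KO and 63 WT nuclei held 10 or more. Of all kept nuclei, 1898 in KO and 788 in WT had the 3 UMIs from 2 genes, and 1198 in KO and 548 in WT also had the Slc26a3 UMI.

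**Figure D1:**
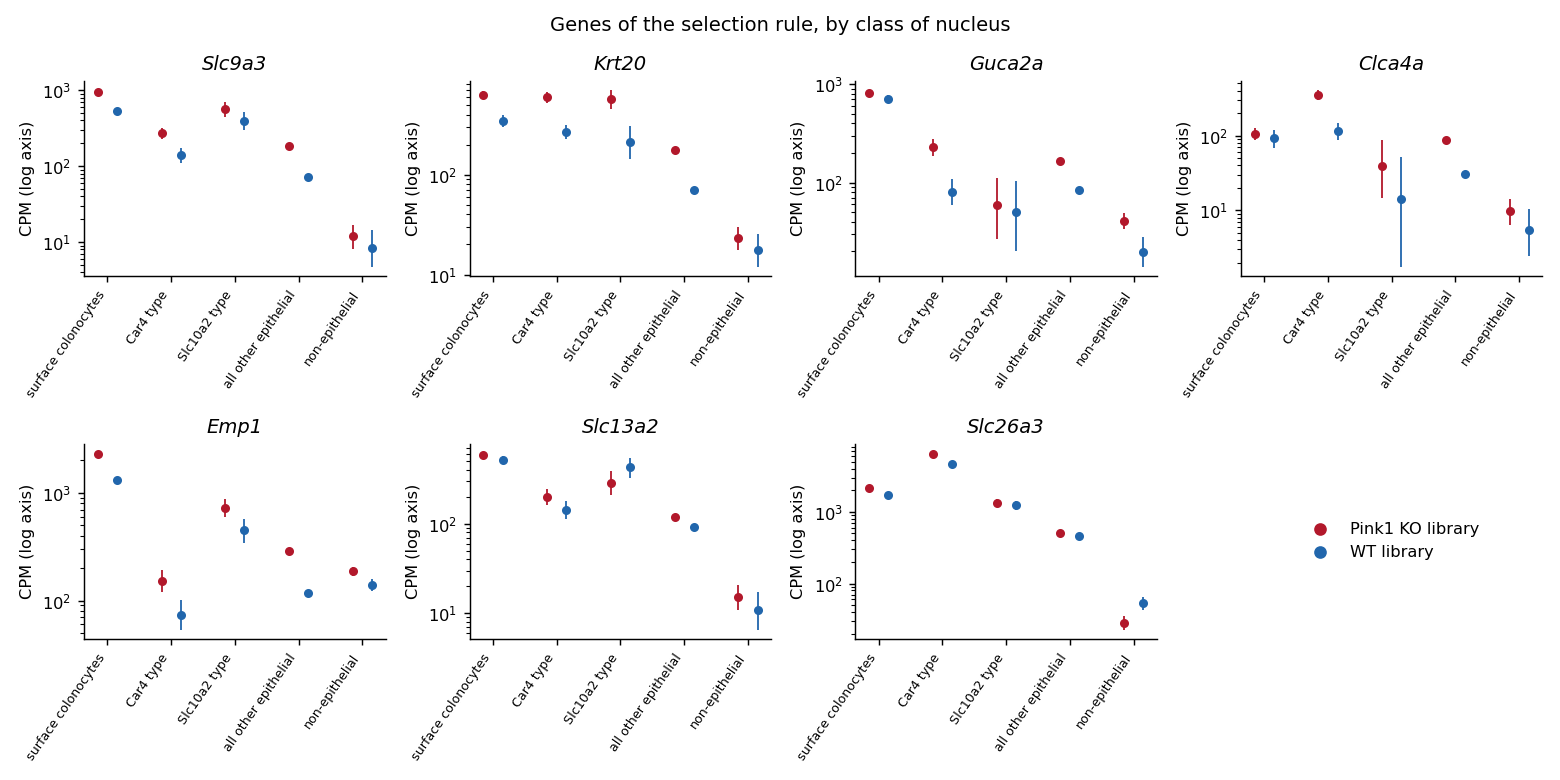
CPM (log axis) of the 6 genes of the rule and Slc26a3 in 5 classes of nuclei, Pink1 KO library in red and WT library in blue, with exact Poisson 95% intervals. Clca4a and Slc26a3 stand higher in Car4 type nuclei than in surface colonocytes, and Slc9a3, Krt20, Emp1, Guca2a and Clca4a are higher in the KO library in the other epithelial nuclei too. In the KO library Krt20 stands at a similar level in surface colonocytes, Car4 type and Slc10a2 type nuclei.

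No list of surface markers outside the rule was used, so the surface label rests on the genes of the rule, and the check was against markers of other cells. Of 12 lists of other markers, the 8 goblet markers summed to 953 CPM in KO and 943 CPM in WT, against 9325 CPM in the other KO and 9017 CPM in the other WT epithelial nuclei. In all, 20.3% of KO and 20.4% of WT surface colonocytes still held 3 or more goblet UMIs. The 5 fibroblast markers summed to 157 CPM in KO and 129 in WT, against 4830 in KO and 4296 in WT non-epithelial nuclei. In the other epithelial nuclei they were lower, at 55.8 in KO and 35.8 in WT. The 5 smooth muscle markers summed to 109 in KO and 52.2 in WT, against 2127 in KO and 1579 in WT non-epithelial nuclei. In the other epithelial nuclei they summed to 56.8 in KO and 51.7 in WT. Epithelial nuclei outside the 3 absorptive types had to pass a limit on stromal and immune genes, which surface colonocytes did not. The 6 crypt-base and cycling markers summed to 166 CPM in KO and 152 in WT, the 4 tuft markers to 66.8 in KO and 140 in WT, and the 4 enteroendocrine markers to 72.5 in KO and 17.9 in WT. In the other epithelial nuclei the crypt-base and cycling markers summed to 423 in KO and 457 in WT. The enteroendocrine markers summed to 199 in KO and 81.9 in WT there. Tuft markers were not lower in surface colonocytes, since the other epithelial nuclei had 65.3 in KO and 49.8 in WT. Of the UMIs of the tuft marker Dclk1, 82.9% in KO and 81.7% in WT lay in 1 nucleus each. T cell and innate lymphoid markers (28.5 in KO, 16.3 in WT), endothelial (22.8 in KO, 26.1 in WT), B and plasma cell (9.77 in KO, 8.16 in WT), macrophage and dendritic (8.15 in KO, 11.4 in WT) and glia and neuron markers (8.96 in KO, 1.63 in WT) were at 28.5 CPM or less. Among these markers, Cd3e, Cd3g, Ms4a1, Mzb1, Sox10 and Cdh19 had 0 UMIs in both libraries. The 6 other absorptive markers, which the rule limits in part, summed to 128 in KO and 134 CPM in WT.

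Surface colonocytes were 4.86% (4.48 to 5.25) of KO nuclei and 2.93% (2.58 to 3.30) of WT nuclei, a ratio of KO over WT of 1.66 (1.43 to 1.93). Of epithelial nuclei alone they were 6.15% in KO and 3.59% in WT. A deeper nucleus meets a UMI rule more easily, so the share was also taken within ranges of depth. It was 1.76% in KO and 1.65% in WT among nuclei of 500 to 1000 UMIs, a ratio of 1.07 (0.62 to 1.85). Among nuclei of 1000 to 2000 UMIs it was 4.83% in KO and 2.48% in WT, a ratio of 1.95 (1.55 to 2.47), and among those of 2000 to 4000 UMIs 5.92% in KO and 3.88% in WT, a ratio of 1.53 (1.21 to 1.94). After each nucleus was thinned to 1000 UMIs the ratio was 2.02, and the part of depth in the share was not tested.

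The genes of the rule were themselves higher in the KO library outside the surface colonocytes. In all other epithelial nuclei the ratio of KO over WT was 2.57 (2.39 to 2.76) for Slc9a3, 2.52 (2.34 to 2.71) for Krt20, 2.44 (2.31 to 2.59) for Emp1, 2.00 (1.87 to 2.15) for Guca2a and 2.86 (2.57 to 3.20) for Clca4a, and 1.29 (1.20 to 1.38) for Slc13a2. A nucleus of the same kind could therefore reach 3 UMIs more often in the KO library, and more surface colonocytes and more of these transcripts per nucleus cannot be told apart from this share. Leaving 1 of the 6 genes out of the rule in turn gave ratios between 1.64 (without Krt20) and 1.88 (without Slc13a2). Absorptive nuclei picked by the Car4 group of genes were fewer in KO, at 1.84% of KO and 2.89% of WT nuclei, a ratio of 0.635 (0.528 to 0.763), and those picked by the Slc10a2 group were 0.659% of KO and 0.653% of WT nuclei. To be picked, such a nucleus had to hold more UMIs of its own group than of the 6 genes of the rule. Since the 6 genes were higher in KO in the other epithelial nuclei, this term could remove more KO nuclei, and its part in these shares was not tested.

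**Figure D2:**
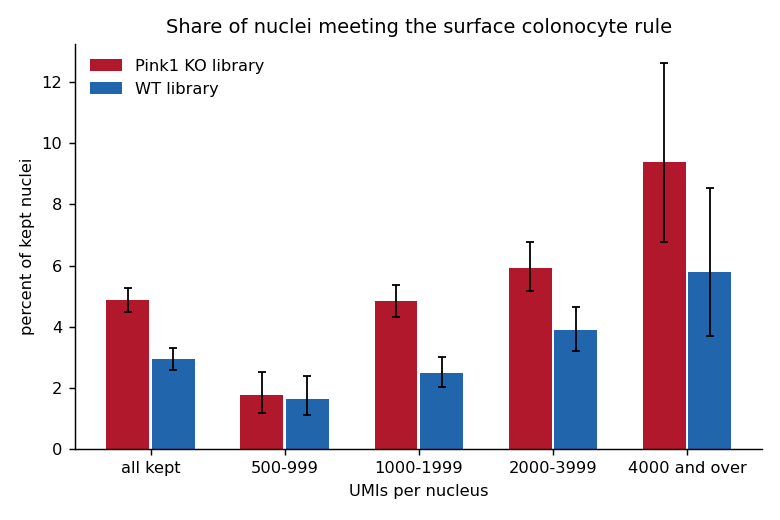
Percent of kept nuclei that met the surface colonocyte rule, in all and within 4 ranges of UMIs per nucleus, Pink1 KO library in red and WT library in blue, with exact Clopper-Pearson 95% intervals. The share is 4.86% in KO and 2.93% in WT over all nuclei, and the intervals overlap in the range under 1000 UMIs and in that of 4000 UMIs and over.

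Pink1 itself (chromosome 4, 138313409 to 138326307, minus strand) gave 3 UMIs in KO surface colonocytes (2.44 CPM) and 7 in WT (11.4 CPM), a ratio of 0.21 (0.04 to 0.94). In the other epithelial nuclei it gave 115 UMIs in KO (6.67 CPM) and 148 in WT (10.7 CPM), a ratio of 0.62 (0.49 to 0.80). Pink1 was thus lower in the KO library but not at 0, and the labels do not say which part of the gene the deletion removes, so 3' tags outside it would check nothing.

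Between genotypes, the genes furthest above WT in the KO surface colonocytes included Egr1, Sgk1, Hbegf and Actg1, and those furthest below included Nr1d2, Tef and Sgpp2. Of 5724 genes with at least 50 UMIs over both libraries, 429 (7.49%) were at least 1.5-fold higher in KO and 389 (6.80%) at least 1.5-fold lower. Of 8538 genes with at least 20 UMIs, 858 (10.0%) were that much higher and 935 (11.0%) lower, with a median log2 ratio of -0.03. These are descriptions of 2 libraries.

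Egr1, a zinc finger transcription factor induced within minutes of growth factor signalling, had 810 UMIs (660 CPM) in KO and 40 UMIs (65.3 CPM) in WT, a ratio of 10.1 (7.36 to 14.3). It was detected in 57.5% of KO and 5.77% of WT surface colonocytes. The same gene was 36.7-fold (33.0 to 40.9) higher in KO over all other epithelial nuclei and 14.5-fold (12.3 to 17.1) in non-epithelial nuclei, so Egr1 was higher in KO in those nuclei too. Fos, a subunit of AP-1, had 981 UMIs (799 CPM) in KO and 138 (225 CPM) in WT, a ratio of 3.55 (2.97 to 4.27), against 8.00 (7.45 to 8.60) in the other epithelial nuclei.

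Sgk1, the kinase that aldosterone and glucocorticoids induce and that keeps sodium channels at the membrane, had 897 UMIs (731 CPM) in KO and 71 (116 CPM) in WT, a ratio of 6.31 (4.95 to 8.15). It was detected in 56.3% of KO and 20% of WT nuclei, and its ratio was close to the 6.07 (5.62 to 6.55) of the other epithelial nuclei. Hbegf, a membrane-anchored ligand of the EGF receptor, had 666 UMIs (542 CPM) in KO and 72 (117 CPM) in WT, a ratio of 4.62 (3.62 to 5.98). Areg, which encodes amphiregulin, another ligand of that receptor, had 278 UMIs (226 CPM) in KO and 43 (70.1 CPM) in WT, a ratio of 3.23 (2.33 to 4.56), with 23.3% of the WT UMIs in 1 nucleus.

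Actg1, cytoplasmic gamma actin, had 1596 UMIs (1300 CPM) in KO and 233 (380 CPM) in WT, a ratio of 3.42 (2.98 to 3.94). H3f3b, which encodes the replication-independent histone H3.3, had 1451 UMIs (1182 CPM) in KO and 182 (297 CPM) in WT, a ratio of 3.98 (3.41 to 4.67). The linker histone gene Hist1h1e had 145 (118 CPM) in KO and 18 (29.4 CPM) in WT, a ratio of 4.02 (2.46 to 6.98). Sycn, syncollin of secretory granules, had 417 UMIs (340 CPM) in KO and 56 (91.4 CPM) in WT, a ratio of 3.72 (2.81 to 5.01), and the ratio was 1.92 among nuclei with little mitochondrial RNA, described further on.

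The other 3 of the 12 genes furthest above WT rested on few nuclei. Reg3b, a secreted antimicrobial lectin, had 77 UMIs (62.7 CPM) in KO, of which 22.1% lay in 1 nucleus, and 1 UMI (1.63 CPM) in WT, a ratio of 38.5 (6.70 to 1538). Chgb, chromogranin B of enteroendocrine granules, had 63 UMIs in KO and 4 in WT, with 39.7% of the KO and 75% of the WT UMIs in 1 nucleus. Carmn, a noncoding RNA of smooth muscle, had 66 UMIs in KO and 4 in WT, found in 13 KO and 2 WT nuclei, against 1039 CPM in KO and 1216 CPM in WT non-epithelial nuclei.

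Among the genes furthest below WT were a pair tied to the circadian clock, whose list as a whole went both ways (given further on). Nr1d2, the nuclear receptor REV-ERB beta, which represses clock genes, had 54 UMIs (44.0 CPM) in KO and 84 (137 CPM) in WT, a ratio of 0.32 (0.22 to 0.46). Tef, a PAR bZIP factor whose RNA follows the clock, had 17 UMIs (13.8 CPM) in KO and 38 (62.0 CPM) in WT, a ratio of 0.22 (0.12 to 0.41). Both were lower in the other epithelial nuclei as well, with ratios of 0.50 (0.46 to 0.53) for Nr1d2 and 0.33 (0.29 to 0.38) for Tef.

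Sgpp2, a sphingosine-1-phosphate phosphatase, was the best covered of the lower genes, with 197 UMIs (160 CPM) in KO and 212 (346 CPM) in WT, a ratio of 0.46 (0.38 to 0.57). Aqp11, an aquaporin of intracellular membranes, had 38 UMIs (31.0 CPM) in KO and 70 (114 CPM) in WT, a ratio of 0.27 (0.18 to 0.41). Rims2, a scaffold of regulated secretion, had 16 (13.0 CPM) in KO and 45 (73.4 CPM) in WT, a ratio of 0.18 (0.09 to 0.32). These genes were lower in KO in the other epithelial nuclei too, at ratios of 0.49 for Sgpp2, 0.53 for Aqp11 and 0.36 for Rims2. Tsc22d1, a leucine zipper protein gene, had 52 UMIs in KO and 76 in WT, a ratio of 0.34 (0.24 to 0.49), where the other epithelial nuclei stood at 0.91 (0.87 to 0.96). Wiz, a zinc finger partner of the G9a methyltransferase, had 21 in KO and 36 in WT, a ratio of 0.29 (0.16 to 0.51), against 0.98 (0.88 to 1.10) in the other epithelial nuclei. In Slc10a2 type nuclei, described further on, the ratio was 0.40 (0.12 to 1.10) for Tsc22d1 and 0.23 (0.02 to 1.16) for Wiz, on few UMIs. The remaining lower genes, Clec14a, Cited2, Fam13a, Soat1 and Nr2f2, had 21 to 58 UMIs in KO and 40 to 79 in WT, with ratios between 0.21 and 0.39. In the other epithelial nuclei the ratios of these genes lay between 0.48 (Clec14a) and 0.78 (Soat1).

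**Figure D3:**
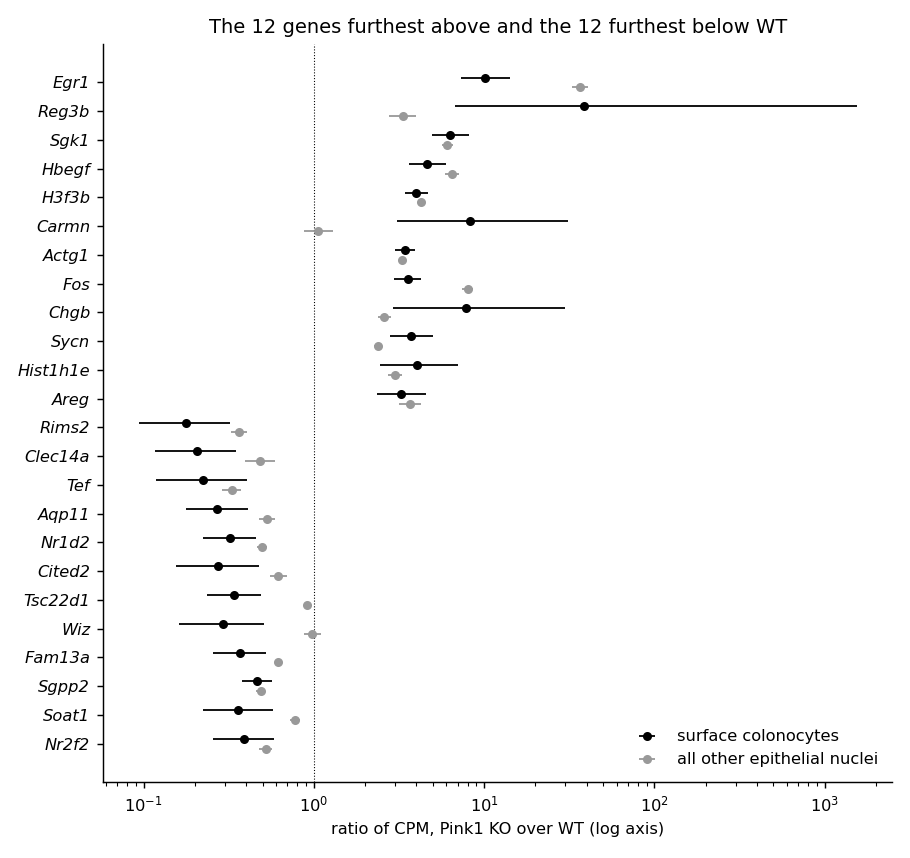
Ratio of CPM, Pink1 KO over WT (log axis), of the 12 genes furthest above and the 12 furthest below WT in surface colonocyte nuclei (black), beside all other epithelial nuclei (grey), with exact conditional 95% intervals for counting error. Egr1 and Fos are further above WT in the other epithelial nuclei, Sgk1, H3f3b and Actg1 lie close together in both classes, and Tsc22d1 and Wiz are near 1 in the other nuclei. The remaining lower genes are below 1 in both classes.

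Promoters of Areg, Actg1 and Tef, and of Btg2 from the immediate early list given further on, are shown because each holds a short motif tied to a class of factor that answers growth signals or the clock. Each sequence is the 250 bases before the annotated start, from RefSeq on GRCm38.p6, 5′ to 3′ on the strand of the gene, with the motif in capitals. Areg (chr5:91139349-91139598, plus strand) and Btg2, a growth arrest gene of the immediate early group (chr1:134079156-134079405, minus strand), hold the cyclic AMP response element TGACGTCA, 61 and 166 bases before the start. Actg1 (chr11:120348496-120348745, minus strand) holds a CArG box, the sequence that serum response factor binds, 90 bases before the start, and Tef (chr15:81802423-81802672, plus strand) holds the E-box CACGTG, to which the CLOCK and BMAL1 pair binds, 127 bases before the start.
Areg: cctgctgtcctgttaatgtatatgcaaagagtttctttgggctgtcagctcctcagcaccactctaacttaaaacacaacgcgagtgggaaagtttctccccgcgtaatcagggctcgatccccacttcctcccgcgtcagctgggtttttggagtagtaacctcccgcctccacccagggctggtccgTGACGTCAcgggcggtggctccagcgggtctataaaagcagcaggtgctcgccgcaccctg
Btg2: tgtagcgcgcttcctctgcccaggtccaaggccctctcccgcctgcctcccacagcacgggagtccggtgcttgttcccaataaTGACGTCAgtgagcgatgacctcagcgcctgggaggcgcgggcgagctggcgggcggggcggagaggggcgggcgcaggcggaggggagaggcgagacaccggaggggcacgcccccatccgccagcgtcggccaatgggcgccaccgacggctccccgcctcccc
Actg1: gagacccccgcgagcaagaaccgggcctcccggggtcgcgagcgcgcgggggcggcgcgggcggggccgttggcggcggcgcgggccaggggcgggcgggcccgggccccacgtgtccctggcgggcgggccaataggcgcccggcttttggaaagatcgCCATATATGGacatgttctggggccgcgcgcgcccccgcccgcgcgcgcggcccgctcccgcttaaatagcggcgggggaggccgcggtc
Tef: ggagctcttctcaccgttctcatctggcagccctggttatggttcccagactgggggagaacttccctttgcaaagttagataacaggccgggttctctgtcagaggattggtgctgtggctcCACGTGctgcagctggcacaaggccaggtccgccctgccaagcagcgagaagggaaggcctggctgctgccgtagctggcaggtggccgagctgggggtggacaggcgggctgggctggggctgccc

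Motifs were searched on both strands in windows from 250 bases before to 50 bases after each start, and the window of Actg1 also held an E-box, left in lower case. Of 32851 windows of all genes, 588 (1.79%) held TGACGTCA, 535 (1.63%) a CArG box and 2349 (7.15%) CACGTG. Of the 12 genes furthest above WT, 8 matched the promoter table with 13 windows, of which 2 held TGACGTCA (Areg and Chgb), 1 a CArG box and 2 (15.4%) CACGTG, in Actg1 and Sgk1. Of the 12 furthest below, 11 matched with 19 windows, and 5 windows (26.3%) held CACGTG, in Cited2, Sgpp2, Tef and Tsc22d1. The AP-1 site, TGACTCA or TGAGTCA, was in 1709 of all windows (5.20%) and in 0 of the windows of either set. A match is a description of the letters and not a bound site.

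Gene lists were read by how many of their genes with 20 UMIs were at least 1.5-fold apart, beside the 10.0% of all genes that were as much higher and the 11.0% that were as much lower. Of 22 immediate early genes, 19 were higher in KO surface colonocytes and 0 lower, with a median log2 ratio of 1.09, against 1.20 in the other epithelial nuclei and 1.30 in Car4 type nuclei. Errfi1, the feedback inhibitor of the EGF receptor, had 425 UMIs (346 CPM) in KO and 100 (163 CPM) in WT, a ratio of 2.12 (1.70 to 2.67). Btg2 had 316 (257 CPM) in KO and 93 (152 CPM) in WT, a ratio of 1.70 (1.34 to 2.16). Of 13 EGF receptor genes 5 were higher and 0 lower, and the feedback inhibitor Spry2 was among them, with 66 UMIs in KO and 16 in WT, while the ubiquitin ligase Cbl had 421 CPM in KO and 458 in WT. Of 12 glucocorticoid targets 6 were higher and 0 lower, with a median of 0.54, against 0.76 in the other epithelial nuclei and 0.39 in Car4 type nuclei. Beside Sgk1 and Errfi1 these took in the phosphatase Dusp1, with 58 UMIs in KO and 6 in WT, and the cell cycle inhibitor Cdkn1a, with 202 CPM in KO and 132 in WT. The lists share genes, since Errfi1 and Dusp1 are also in the immediate early list and Sgk1 is also in the sodium absorption list. Fkbp5 had a ratio of 1.23 (1.04 to 1.45).

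Keratins and related surface proteins that were 1.5-fold apart were all higher in KO. Of 17 with 20 UMIs, which include Krt20 and Emp1 of the rule, 9 were at least 1.5-fold higher and 0 lower, with a median log2 ratio of 0.61, against 0.71 in the other epithelial nuclei. Without Krt20 and Emp1, 7 of 15 were higher and 0 lower, with a median of 0.58. Krt8, the main type II keratin of simple epithelia, had 2564 UMIs (2088 CPM) in KO and 638 (1041 CPM) in WT, a ratio of 2.01 (1.84 to 2.19). Krt19 had 657 CPM in KO and 341 in WT, a ratio of 1.93 (1.65 to 2.25), and the calcium-binding protein gene S100a6 had 762 in KO and 372 in WT, a ratio of 2.05 (1.77 to 2.38). Among nuclei with under 0.5% mitochondrial UMIs the median of this list was 0.76.

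Apical membrane genes gave fewer differences. Of 22 microvillus and brush border genes 3 were higher and 0 lower. Ceacam1, an adhesion protein of the brush border, had 2862 UMIs (2331 CPM) in KO and 749 (1222 CPM) in WT, a ratio of 1.91 (1.76 to 2.07). Myo1a, the motor that ties the microvillus core to its membrane, had 441 CPM in KO and 281 in WT, a ratio of 1.57 (1.32 to 1.88). Cald1, caldesmon, which is also abundant in smooth muscle, had 46 UMIs in KO and 10 in WT. The 5 smooth muscle markers summed to 109 CPM in KO and 52.2 CPM in WT in these nuclei, and their part in Cald1 and Carmn was not tested. Of 10 membrane mucin and glycocalyx genes 3 were higher and 0 lower. They were the galectins Lgals3 (847 CPM in KO, 396 in WT, ratio 2.14, 1.86 to 2.47) and Lgals4 (1607 in KO and 989 in WT, ratio 1.63, 1.48 to 1.78) and the mucin Muc4 (82.3 in KO and 24.5 in WT, ratio 3.36, 1.94 to 6.23). Of 27 junction genes 2 were higher and 0 lower, and the intestinal cadherin Cdh17 was one of them, with 366 CPM in KO and 219 in WT.

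Ion transport is given by list and by single genes. Of 16 sodium absorption genes 3 were higher and 1 lower, with a median of 0.07, against 0.25 in the other epithelial nuclei. That median moved to 0.30 without the highest doublet scores and to 0.30 when 5 UMIs of the 6 genes were asked for. Sgk1 and Slc9a3 were among the higher ones, and without Slc9a3, a gene of the rule, 2 of 15 were higher and 1 lower, with a median of 0.05. The lower one was Fxyd4, a regulator of the sodium pump, with 17 UMIs (13.8 CPM) in KO and 18 UMIs (29.4 CPM) in WT. Atp1b1, the beta subunit of that pump, had 1529 CPM in KO and 1263 in WT. Of 13 chloride and bicarbonate genes 1 was higher and 1 lower. Slc4a4, a sodium bicarbonate cotransporter, had 149 CPM in KO and 94.6 in WT, a ratio of 1.58 (1.17 to 2.15). Slc12a2, the basolateral cotransporter that loads secreting cells with chloride, had 125 in KO and 209 in WT, a ratio of 0.60 (0.47 to 0.77). The sulfate transporter Slc26a2 had 1901 CPM in KO and 1870 in WT. Of 9 potassium channel and water genes 2 were higher and 1, Aqp11, lower, and Aqp4 had 1203 CPM in KO and 1547 in WT, a ratio of 0.78 (0.72 to 0.84). In 5 guanylin signalling genes 0 were 1.5-fold apart, and Guca2a had a ratio of 1.15 (1.03 to 1.29), which turned to 0.94 when 5 UMIs of the 6 genes were asked for and to 0.82 among nuclei with no Aqp4 UMI.

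Interferon and barrier genes are set beside the 10.0% of all genes that were higher, and many of them had few UMIs. Of 13 interferon and antiviral genes 6 were higher and 0 lower, with a median of 0.58, against 0.25 in the other epithelial nuclei. That median was 0.13 after thinning to 1000 UMIs, 0.28 with no UMI of other absorptive markers and 0.85 without the highest doublet scores. They included the interferon signalling subunit Irf9 with 110 UMIs in KO and 34 in WT, and Gbp7 with 47 in KO and 5 in WT. The RNA sensor Ddx58 had 37 in KO and 7 in WT and the Z-nucleic acid sensor Zbp1 had 32 in KO and 4 in WT, while Irf1 had 171 CPM in KO and 178 in WT. Of 15 antimicrobial and barrier genes 7 were higher and 0 lower, with a median of 0.27. That was below the 0.68 of the other epithelial nuclei and the 0.71 of Car4 type nuclei. Lypd8, which keeps flagellated bacteria off the colon surface, had 1331 UMIs (1084 CPM) in KO and 404 (659 CPM) in WT, a ratio of 1.65 (1.47 to 1.84). Pigr, the carrier of IgA across the epithelium, had 1004 in KO and 1057 CPM in WT.

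Of the metabolic lists, the respiratory chain is given first. Of 35 nuclear-encoded respiratory chain genes 7 were higher and 0 lower, with a median of 0.32, and the complex IV subunit gene Cox6a1 had 161 CPM in KO and 70.1 in WT, a ratio of 2.30 (1.65 to 3.28). Mitochondrially encoded RNA stood at 0.958% in KO and 0.498% in WT, and its part in the list was not tested. Among the 513 KO and 229 WT nuclei with under 0.5% mitochondrial UMIs the median was 0.16, and among nuclei with no Aqp4 UMI it was -0.07. Of 28 genes of butyrate uptake, fatty acid oxidation and ketone synthesis 1 was higher and 4 lower, with a median of -0.15. Hadhb, of the mitochondrial trifunctional protein, had 112 CPM in KO and 183 in WT, a ratio of 0.61 (0.47 to 0.79). Acsm3, an acyl-CoA synthetase, had 103 in KO and 165 in WT, a ratio of 0.62 (0.48 to 0.82). Acadvl, the very long chain acyl-CoA dehydrogenase, had 64.3 in KO and 34.3 in WT, a ratio of 1.88 (1.15 to 3.20).

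Genes of mitophagy, the process PINK1 starts, were nearly all within 1.5-fold. Of 26 with 20 UMIs, 0 were 1.5-fold higher and 1 was lower, with a median of -0.06. Rhot2, the Miro2 GTPase that ties mitochondria to motor proteins, had 89 UMIs (72.5 CPM) in KO and 71 (116 CPM) in WT, a ratio of 0.63 (0.45 to 0.87). Tax1bp1, a mitophagy receptor, had 500 CPM in KO and 540 in WT, and the fission GTPase Dnm1l 381 in KO and 338 in WT.

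Of 13 clock and clock output genes 3 were higher and 5 lower. Beside Nr1d2 and Tef, Per3 had 36.6 CPM in KO and 63.6 in WT and Cry2 28.5 in KO and 57.1 in WT. The repressor Bhlhe40 was on the other side with 326 CPM in KO and 186 in WT, a ratio of 1.75 (1.42 to 2.18), and Clock itself had 424 in KO and 382 in WT. Of 29 surface differentiation factors 5 were higher and 1 lower. The Kruppel-like factor Klf3 was at 2324 CPM in KO and 1480 in WT, a ratio of 1.57 (1.46 to 1.69), and Klf6 at 1069 in KO and 666 in WT, a ratio of 1.61 (1.44 to 1.80). Of 29 stress and death genes 7 were higher and 2 lower, with Gadd45a, a DNA damage response gene, at 127 CPM in KO and 44.1 in WT, a ratio of 2.88 (1.91 to 4.52). Of 28 xenobiotic and bile acid genes 2 were higher, among them Nr1h4, the bile acid receptor FXR, at 192 in KO and 119 CPM in WT. In the same list 5 were lower, among them Ugt1a6a at 141 in KO and 219 CPM in WT. The Ugt1a genes share exons, and their counts may be split between them. Of 15 Hox genes 0 were higher and 2 lower, Hoxb5 at 130 CPM in KO and 196 in WT and Hoxa10 at 18.7 in KO and 47.3 in WT. Of the remaining lists, antigen presentation had 2 of 8 genes higher and 0 lower, glycolysis 3 of 17 higher and 0 lower, NF-kB and cytokine genes 1 of 16 higher and 1 lower, and calcium-activated chloride channel regulators 0 of 5 higher and 1 lower.

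**Figure D4:**
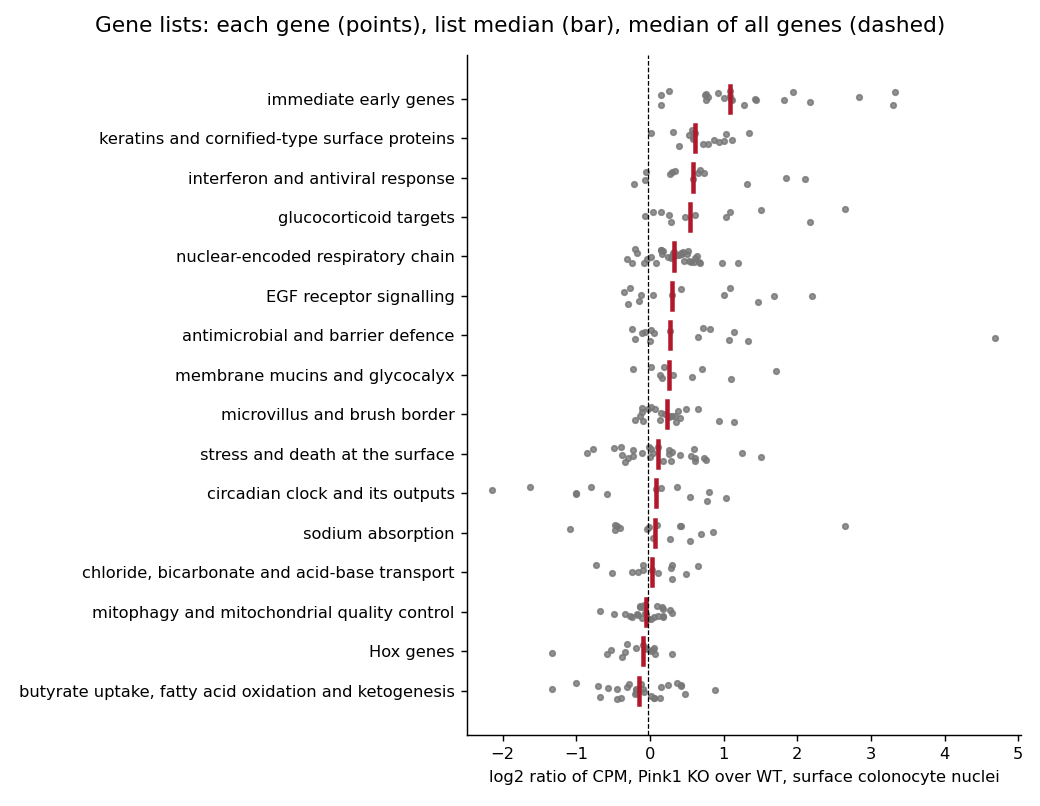
Log2 ratio of CPM, Pink1 KO over WT, of each gene with at least 20 UMIs (points) in 16 gene lists in surface colonocyte nuclei, with the median of each list (bar) and of all 8538 genes (dashed, -0.03). Immediate early genes have the highest median, 1.09, and the butyrate and fatty acid oxidation list the lowest of those drawn, -0.15.

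Genes that set surface colonocytes apart from other nuclei were sought among 2538 genes with at least 50 UMIs over them in each library. Against all other epithelial nuclei, 130 genes (5.12%) were at least 2-fold higher in both libraries and 35 (1.38%) at least 2-fold lower. Since nuclei chosen by 6 genes carry whatever goes with those genes, these are descriptions, and a gene is named where both libraries give the same direction.

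Apol10a, of the apolipoprotein L family, had 1337 CPM in KO surface colonocytes against 274 in the other KO epithelial nuclei (4.89-fold), and 977 against 193 in WT (5.07-fold). Hsd3b3, a hydroxysteroid dehydrogenase, had 2516 against 711 CPM in KO (3.54-fold) and 3046 against 715 in WT (4.26-fold). Aqp4, the water channel of the basolateral membrane, was 3.90-fold higher in KO and 3.94-fold in WT, and Car1, the carbonic anhydrase that supplies protons and bicarbonate for exchange, 3.53-fold in KO and 4.34-fold in WT. The chloride channel Clcn2 was 4.13-fold higher in KO and 4.36-fold in WT, and the fatty acid hydroxylase Fa2h 4.25-fold in KO and 4.70-fold in WT. The membrane dipeptidase Dpep1 was 4.92-fold in KO and 7.84-fold in WT, and the monocarboxylate transporter family member Slc16a5 3.90-fold in KO and 4.93-fold in WT. Mgat4c, Sptssb, Igsf9 and Pcsk5 were 3.87-fold to 5.10-fold higher in KO and 4.51-fold to 6.16-fold in WT. Lower were secretory genes, such as Fcgbp, a mucus protein (0.084 of the other nuclei in KO and 0.058 in WT), and Agr2, a chaperone of mucin folding (0.17 in KO, 0.21 in WT). Lower as well were Mptx1 (0.10 in KO, 0.24 in WT) and Slc12a2 (0.18 in KO, 0.25 in WT). Hsd3b3, Apol10a and Ces1f had served to name early colonocytes in earlier results of these data, so they do not speak for a surface position. Early colonocytes were not made a class of their own, so surface colonocytes were not compared with them. The rule's limit on Muc2 removes goblet nuclei from the surface colonocytes and leaves them in the rest.

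The other absorptive nuclei picked by rule were 223 KO and 257 WT nuclei of the Car4 type, and 80 KO and 58 WT nuclei of the Slc10a2 type. Each nucleus held at least 3 UMIs from at least 2 genes of its group and a UMI of Slc26a3. It also had to hold more UMIs of its own group than of the genes of the surface colonocyte rule. This term favours nuclei low in the rule genes, and its part in the contrasts with these types was not tested. Against the Car4 type 175 genes (6.90%) were at least 2-fold higher in surface colonocytes in both libraries and 47 (1.85%) lower. Aqp4 stood 14.4-fold (10.5 to 20.3) higher in KO and 17.9-fold (13.4 to 24.4) in WT, Apol10a 17.3-fold in KO and 12.1-fold in WT, and Car12, a membrane carbonic anhydrase, 24.6-fold (8.28 to 120) in KO and 26.0-fold (9.90 to 97.2) in WT. Mgat4c was 8.37-fold higher in KO and 7.46-fold in WT and Ces1f, a carboxylesterase, 11.1-fold in KO and 10.9-fold in WT, and Sptssb had 0 UMIs in the WT Car4 type. Lower were the phosphate transporter Slc20a1 (0.17 in KO and 0.13 in WT), the tetraspan protein Tm4sf20 (0.14 in KO, 0.16 in WT), and the selenium carrier Selenop (0.12 in KO, 0.16 in WT). So were the peroxidase Prdx6 (0.20 in KO, 0.23 in WT), the transglutaminase Tgm3 (0.12 in KO, 0.19 in WT) and Cyp2d34 (0.20 in KO, 0.21 in WT).

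Against the Slc10a2 type 138 genes (5.44%) were at least 2-fold higher in both libraries and 46 (1.81%) lower. Aqp4 was 22.9-fold (11.6 to 53.1) higher in KO and 15.5-fold (9.20 to 28.5) in WT, Tmprss2, a membrane serine protease, 6.99-fold in KO and 5.25-fold in WT, and Krt19 5.54-fold in KO and 7.98-fold in WT. Skil was 4.06-fold higher in KO and 13.8-fold in WT, and the gasdermin Gsdmc2 8.93-fold in KO and 4.08-fold in WT. Lower were Selenop (0.14 in KO, 0.18 in WT), Prkg2, the cGMP-dependent kinase that guanylin signalling feeds (0.18 in KO, 0.20 in WT), and the sialidase Neu1 (0.20 in KO, 0.24 in WT). So were the microvillus genes Eps8 (0.27 in KO, 0.26 in WT) and Cobl (0.25 in KO, 0.28 in WT) and Slc17a4 (0.21 in KO, 0.27 in WT). Dclk1, which the same rule takes, had 82.9% of its KO and 81.7% of its WT UMIs in 1 nucleus each.

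Surface colonocytes also differed among themselves. The variance of a gene's UMIs over nuclei, divided by that expected from depth and its mean, had a median over 2456 genes of 1.18 in KO and 1.20 in WT. Emp1 stood at 5.71 in KO and 6.54 in WT, Guca2a at 6.93 in KO and 9.46 in WT and Slc26a3 at 5.95 in KO and 3.90 in WT, all shaped by the rule. Of genes outside it, Prdx6 had 6.26 in KO and 6.88 in WT, Slfn4, an interferon-induced Schlafen gene, 5.74 in KO and 7.51 in WT, and Dmbt1, a secreted scavenger receptor, 5.68 in KO and 6.31 in WT. Car1 had 5.30 in KO and 5.86 in WT and Aqp4 5.15 in KO and 7.16 in WT. Of the Slfn4 UMIs 9.30% in KO and 28.7% in WT lay in 1 nucleus, and of the Dmbt1 UMIs 2.01% in KO and 10.2% in WT. Dclk1 (52.0 in KO, 55.7 in WT) and Meg3 (75.7 in KO, 11.8 in WT) rested on 1 nucleus for 82.9% and 56.7% of the KO UMIs. The nuclear RNAs Malat1 (42.9 in KO, 46.9 in WT), Neat1 (8.07 in KO, 19.0 in WT) and Kcnq1ot1 (6.63 in KO, 6.94 in WT) completed the 10 most uneven genes.

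Aqp4 was used to split the nuclei. It gave no UMI in 44.2% of KO and 45.8% of WT surface colonocytes, and 5 or more in 19.3% of KO and 29.2% of WT nuclei. Nuclei with at least 2 Aqp4 UMIs (249 in KO, 112 in WT) were set against those with none (261 in KO, 119 in WT) within each library, a split chosen after this unevenness was seen. The nuclei with Aqp4 were deeper, with a median of 2078 UMIs against 1654 in KO and 2612.5 against 1762 in WT, and held more mitochondrial RNA, 1.18% against 0.575% in KO and 0.557% against 0.338% in WT. Of 2546 genes with 50 UMIs in each library, 85 (3.34%) were at least 1.5-fold higher with Aqp4 in both libraries and 68 (2.67%) as much lower.

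The sides of this split differed in Hox genes, which mark position along the gut. With Aqp4, Hoxa9 was 2.60-fold (1.94 to 3.54) higher in KO and 2.44-fold (1.61 to 3.79) in WT and the noncoding RNA Hoxa11os, antisense to Hoxa11, 2.89-fold (2.34 to 3.60) in KO and 3.55-fold (2.47 to 5.23) in WT. Hoxb6 was lower at 0.40 (0.24 to 0.65) in KO and 0.32 (0.16 to 0.61) in WT, Hoxb5 at 0.58 in KO and 0.32 in WT, Hoxb4 at 0.47 in KO and 0.31 in WT and Hoxb3 at 0.50 in KO and 0.34 in WT. Hoxa7 was higher with Aqp4 at 1.52 (1.003 to 2.34) in KO and 1.83 (1.05 to 3.36) in WT. Hoxa3 (2.89 in KO, 1.65 in WT), Hoxa5 (1.42 in KO, 2.46 in WT) and Hoxb9 (1.57 in KO, 1.29 in WT) had ratios above 1 in both libraries, with intervals reaching below 1 in at least 1 of them. The Hox clusters are dense and partly antisense, and no label says whether strand was used in counting, so reads of neighbours such as Hoxa11os and Hoxa11 may not be told apart.

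Other genes went with Aqp4 on the same side of both libraries. Higher were Glul, glutamine synthetase (3.17-fold in KO, 5.69-fold in WT), Arhgef38 (3.04 in KO, 3.51 in WT) and Tmprss2 (2.52 in KO, 2.25 in WT). So were Gsdmc4 (2.29 in KO, 2.24 in WT), Utp20 (2.33 in KO, 2.16 in WT) and Pigr (2.16 in KO, 1.93 in WT). Lower were Eps8 (0.30 in KO, 0.38 in WT), the plasma membrane calcium pump Atp2b1 (0.48 in both), Neu1 (0.42 in KO, 0.28 in WT) and the drug efflux pump Abcb1a (0.52 in KO, 0.48 in WT). Lower too were Myzap (0.37 in KO, 0.25 in WT), Myo15b (0.53 in KO, 0.50 in WT), Nr1d2 (0.30 in KO, 0.34 in WT) and Sgk1 (0.42 in KO, 0.31 in WT). Of the genes of the rule, Clca4a was 0.25 in KO and 0.11 in WT and Slc9a3 0.56 in KO and 0.47 in WT, while Guca2a was 2.57 in KO and 1.5 in WT. Car1 was lower on the Aqp4 side, at 0.51 in KO and 0.56 in WT.

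The genotype ratios were also taken on each side of the split. Sgk1 was 7.99-fold (4.96 to 13.7) higher in KO among nuclei with Aqp4 and 5.83-fold (4.24 to 8.22) among those without. The ratio of Actg1 was 3.34 with Aqp4 and 3.56 without, that of Krt8 2.00 with and 1.99 without, that of Sgpp2 0.45 with and 0.40 without, and that of Nr1d2 0.27 with and 0.30 without. Egr1 stood at 18.1-fold (10.5 to 34.3) with Aqp4 and 5.33-fold (3.48 to 8.56) without, and Areg at 1.88-fold (1.23 to 2.98) with and 6.23-fold (3.28 to 13.3) without. Neither pair of intervals overlaps, but they cover counting error only and the difference between the sides was not tested. The WT counts were small, with 13 UMIs with Aqp4 and 23 without for Egr1, and 28 with and 10 without for Areg. Of all WT Areg UMIs, 23.3% lay in 1 nucleus.

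Guca2a, the guanylin gene and a gene of the rule, gave a second split, and mitochondrial RNA went with it. Nuclei with at least 2 Guca2a UMIs (200 in KO, 83 in WT) held 1.95% mitochondrial RNA in KO and 0.886% in WT, against 0.257% in KO and 0.096% in WT in the nuclei with none (229 in KO, 118 in WT). The nuclei with Guca2a were also deeper, with a median of 2023 UMIs against 1654 in KO and 2618 against 1731 in WT. Each of the 8 mitochondrially encoded genes with enough UMIs was higher with Guca2a, by 6.27-fold to 8.73-fold in KO and 7.30-fold to 19.0-fold in WT. Of 2546 genes 104 (4.08%) were at least 1.5-fold higher with Guca2a in both libraries and 28 (1.10%) as much lower.

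The highest nuclear-encoded genes on the Guca2a side took in the respiratory chain subunits Cox8a (4.89-fold in KO, 6.69-fold in WT) and Cox6c (3.60 in KO, 4.58 in WT), thioredoxin Txn1 (3.74 in KO, 3.82 in WT) and ferritin heavy chain Fth1 (2.73 in KO, 3.10 in WT). Next were Mgst3 (2.63 in KO, 4.26 in WT), Crip1 (2.81 in KO, 2.88 in WT), S100a6 (2.44 in KO, 2.87 in WT) and Sycn (5.47 in KO, 3.54 in WT). Lower were Neu1 (0.40 in KO, 0.49 in WT), Utp14b (0.48 in KO, 0.62 in WT) and Noct (0.60 in KO, 0.59 in WT). Nearer to 1 were Lmo7 (0.69 in KO, 0.58 in WT), Ugdh (0.64 in KO, 0.72 in WT), Atp2b1 (0.67 in KO, 0.69 in WT) and Myo15b (0.75 in KO, 0.69 in WT). Slc9a3, at 0.62 in KO and 0.61 in WT, and Emp1, at 0.74 in both, are set in part by the rule, since a nucleus with no Guca2a UMI needs its 3 UMIs from the other genes. The part of cytoplasmic or free RNA in the genes that went with Guca2a was not tested.

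**Figure D5:**
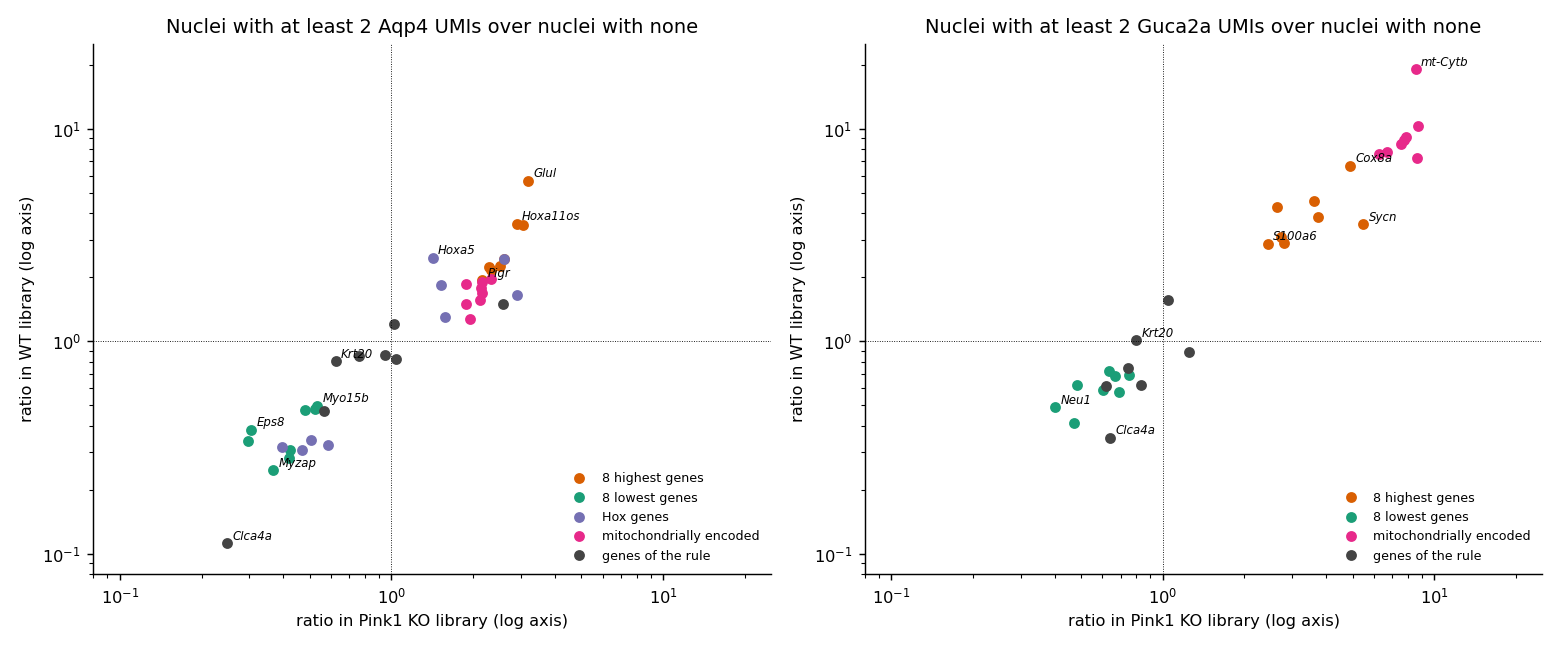
Ratio of CPM between sides of 2 splits of the surface colonocyte nuclei, Pink1 KO library on the x axis and WT library on the y axis (both log), for nuclei with at least 2 Aqp4 UMIs over none (left) and at least 2 Guca2a UMIs over none (right). The Hox genes part into a group above 1 and a group below 1 with Aqp4, and the mitochondrially encoded genes lie furthest above 1 with Guca2a, up to mt-Cytb at 19.0 in WT.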

How the data were processed

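Nuclei of the colon of 3 mice per genotype were pooled into 1 library each. The authors deposited raw UMI counts per gene and barcode. Per the file headers, Cell Ranger 6.1.2 wrote these matrices. The submitters' processing notes name the genome build mm10 (GRCm38). No source used here gives the annotation release, intron counting, strand setting or doublet removal.

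Barcodes with at least 500 UMIs, 300 genes and at most 10% mitochondrial UMIs were kept. Counts were summed over the nuclei of a class and scaled to CPM over nuclear-encoded genes. Ratios are KO over WT with exact conditional binomial 95% intervals, shares have Clopper-Pearson and levels Poisson intervals; all cover counting error only. No test was run between genotypes. Doublets were kept, and the highest Scrublet scores, at 0.8% per 1000 barcodes, were left out as an alternative. Nuclei outside the 3 absorptive types were called epithelial with at least 2 UMIs of 17 epithelial genes, exceeding stromal and immune genes by over 2 times. The 3 absorptive types had no such limit. Code was tested on simulated data (Python 3.11.15, scipy 1.17.1, scanpy 1.11.5).

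Members and gene lists were chosen with earlier results of these data known. Genes were named by rule. Taken were the genes of the selection, and the 12 highest and 12 lowest of at least 50 UMIs by the bound of the ratio nearest to 1. So were 12 genes above all other epithelial nuclei and 6 in each direction against each like type. Splits gave 8 genes in each direction, spread the 10 largest, and each list up to 4 genes 1.5-fold apart and 2 of the highest counts. Mitochondrial, Xist, Tsix, Y-linked, immunoglobulin, hemoglobin and clone-named genes were left out. In the splits, Y-linked genes were not left out. List medians and counts of genes 1.5-fold apart between genotypes add 0.5 to each count. A few genes that these rules take are not reported here. Genes below the other epithelial nuclei were chosen after their values were seen, as were the promoters.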

Additional observations from a re-analysis of the deposited data

Results flagged for a closer look

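With 1 library per genotype, the difference between classes was not tested for any gene below. Each of them had a ratio of KO over WT on one side of 1 in surface colonocytes and on the other side in a like class, with counting intervals that left out 1 in both.

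Carmn had a ratio of 8.24 (3.07 to 31.1) in surface colonocytes and 0.10 (0.03 to 0.26) in Car4 type nuclei, and Cald1 2.30 (1.14 to 5.10) in surface colonocytes and 0.20 (0.07 to 0.49) in Car4 type nuclei. Hk1, hexokinase 1, had 1.53 (1.02 to 2.34) in surface colonocytes and 0.60 (0.38 to 0.95) in Car4 type nuclei. Rhot2 had 0.63 (0.45 to 0.87) in surface colonocytes, 1.70 (1.02 to 2.86) in Car4 type nuclei and 1.17 (1.07 to 1.29) in all other epithelial nuclei. Slc4a4 had 1.58 (1.17 to 2.15) in surface colonocytes and 0.75 (0.71 to 0.80) in all other epithelial nuclei, and the sialyltransferase gene St6galnac6 0.85 (0.75 to 0.97) in surface colonocytes and 1.11 (1.08 to 1.14) in those nuclei. Cyp2c55 had 0.80 (0.72 to 0.90) in surface colonocytes and 1.11 (1.06 to 1.16) in the other epithelial nuclei, Lrig3, an inhibitor of growth factor receptors, 0.83 (0.69 to 1.00) in surface colonocytes and 1.04 (1.00 to 1.08) in the others, and Hoxb5 0.67 (0.52 to 0.85) in surface colonocytes and 1.08 (1.02 to 1.14) in the others.

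Smooth muscle markers summed to 109 CPM in KO and 52.2 CPM in WT surface colonocytes, and 28.8% of the KO Carmn UMIs lay in 1 nucleus; their part in the Carmn and Cald1 ratios was not tested.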

How the results depend on the processing

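No paired analysis was possible because there is 1 library per genotype and no test. Precision is limited by counts: 3 UMIs over the members are 2.44 CPM in KO and 4.89 CPM in WT. Settings on mitochondrial RNA, the Aqp4 split and leaving out a rule gene were chosen after seeing the data. The ratio of shares was 2.01 when 5 UMIs of the 6 genes were asked for and 2.02 after thinning to 1000 UMIs (4.17% in KO and 2.06% in WT), and stayed between 1.63 and 1.88 under the other 12 settings. The percent of genes 1.5-fold higher was 12.7 after thinning, and the percent lower was 11.0 at 20 UMIs. The keratin median was 0.73 with the stricter filter, 0.50 at 5 UMIs, 0.71 with no UMI of other absorptive markers and 0.76 under 0.5% mitochondrial RNA. The respiratory chain median was 0.11 with the stricter filter, 0.20 at 5 UMIs, 0.19 thinned, 0.16 under 0.5% mitochondrial RNA and -0.069 with no Aqp4 UMI. The interferon median was 0.13 thinned, 0.28 with no UMI of other absorptive markers, 0.30 with no Aqp4, 0.33 for genes of 50 UMIs, 0.37 with Aqp4 and 0.85 without top doublet scores. The sodium absorption median was 0.30 without top doublet scores, 0.30 at 5 UMIs, 0.33 thinned and 0.28 for genes of 50 UMIs. The immediate early median was 0.70 thinned and 0.90 with Aqp4, the clock median 0.46 thinned and -0.44 with no Aqp4, and the glucocorticoid target median 0.80 thinned and 0.92 with no Aqp4. Guca2a turned to 0.94 at 5 UMIs, 0.95 thinned and 0.82 with no Aqp4, and Chgb to 0.86 with no Aqp4; the cause was not tested. Of 403 single-gene values 354 stayed within their counting spread, 45 moved and 4 turned. Of 300 list medians, judged by a spread over their genes and not by counting error, 238 stayed, 61 moved and 1 turned. A list with a main median near 0, such as the clock, could change sign without being counted as turned. Egr1 ranged from 5.23 to 17.5, Sgk1 from 5.48 to 7.88, Actg1 from 3.24 to 3.80, Tef from 0.20 to 0.28 and Carmn from 1.02 to 47.2.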
